A study of Sus scrofa with 16 samples.

Results

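Toll-like receptors (TLRs) are the membrane proteins with which animals sense microbial molecules, and all 10 members known in the pig, TLR1 to TLR10, were measured here in liver. Array probes were counted as TLR probes when the array's annotation gave them the symbol of a member. That rule found 15 of 43603 probes. TLR4 had 5 probes, TLR3 had 2 and each other receptor had 1. The receptors were selected on the processed signals of these same arrays, since the family was picked for description with its line differences already known. The differences between the lines are therefore given as measured values, and no test of them is offered as support.

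The tissue was liver from 16 pigs (Sus scrofa), each hybridised to its own 1-colour Agilent array. The first line, low-RFI (RFIneg), gave 8 pigs, and the second line, high-RFI (RFIpl), gave the other 8. RFI is residual feed intake, the feed an animal eats above or below what its growth and maintenance predict, so low-RFI pigs need less feed for the same gain. All pigs of both lines weighed 20 kg and had free access to feed, and their sex, age and breed are not given in the sources used here. With 1 low-RFI and 1 high-RFI line sampled, selection on RFI and other ways in which the lines may differ cannot be told apart.

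The surface receptors TLR1, TLR2, TLR4, TLR5 and TLR6 meet bacterial wall and flagellar components, while TLR3, TLR7, TLR8 and TLR9 sit in endosomes and bind nucleic acids. The ligand of TLR10, also a surface receptor, is less well settled. Ligand binding brings TIR-domain adaptors such as MYD88 to the receptor, and kinases and ubiquitin ligases then switch on NF-kB and IRF transcription factors and, through them, cytokine genes. Liver receives blood from the gut and holds the largest macrophage population of the body, the Kupffer cells, which carry several TLRs together with endothelium, hepatocytes and passing leukocytes.

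A probe is a DNA strand of 60 bases, and what it binds decides which transcript is read. The probes of TLR5 and TLR6 are printed because their line differences were the furthest from 0 relative to their errors. The TLR2 probe is printed because it varied with several other receptors. Positions are counted from the start of the transcript in the array's annotation, and each sequence is written 5′ to 3′. The TLR5 probe covers bases 1522 to 1581, the TLR6 probe bases 2320 to 2379 and the TLR2 probe bases 2156 to 2215.
TLR5 probe A_72_P180506: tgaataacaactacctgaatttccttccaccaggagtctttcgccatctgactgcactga
TLR6 probe A_72_P088166: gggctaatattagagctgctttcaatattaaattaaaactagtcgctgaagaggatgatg
TLR2 probe A_72_P088356: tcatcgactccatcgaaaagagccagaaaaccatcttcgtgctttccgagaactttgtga

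The TLR3 probes start 12 bases apart, at bases 2870 and 2882, and are shown because they are not separate readings of the transcript. Capitals mark the 48 bases that both hold.
TLR3 probe A_72_P471206: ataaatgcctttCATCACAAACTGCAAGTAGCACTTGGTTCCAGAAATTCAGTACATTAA
TLR3 probe A_72_P303279: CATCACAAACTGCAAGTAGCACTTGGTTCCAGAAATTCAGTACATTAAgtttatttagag

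The 5 TLR4 probes lie apart along the transcript, starting at bases 749, 2000, 2208, 2492 and 3229, the last counted on a different transcript model than the others. The first 3 are shown because the middle of them, which lay near background, gave a larger line difference than its neighbours.
TLR4 probe A_72_P419074: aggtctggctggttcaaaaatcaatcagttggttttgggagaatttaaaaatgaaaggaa
TLR4 probe A_72_P444577: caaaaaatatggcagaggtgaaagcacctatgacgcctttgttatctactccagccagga
TLR4 probe A_72_P547391: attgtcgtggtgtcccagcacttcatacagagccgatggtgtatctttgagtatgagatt

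Probes of different receptors shared no run longer than 8 bases with each other. The longest run that the TLR5 probe shared with any other probe of the array was 15 bases, found in 1 probe. The genomic place of the probes is not given here, since no genome was used. In the RefSeq gene order of the pig assembly Sscrofa11.1, TLR10, TLR1 and TLR6 are direct neighbours, and TLR7 lies within the span annotated for TLR8.

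A level is the log2 processed signal of a probe minus the 75th percentile of its array, so 0 stands for that percentile and each unit is a doubling. Levels of different probes are not compared, because probes differ in how brightly they bind. A difference is the low-RFI mean minus the high-RFI mean. Each of 4 slides held 2 pigs of each line, and an array had 28579 to 34983 probes well above background. Intensity at the 75th percentile lay between 320.0 and 508 units, over a local background with a median of 29 to 40 units. High-RFI pig 6 stood apart, with a median correlation of 0.971 to the other arrays, against 0.975 to 0.984 for the other 15. As a check of the tissue, the 10 measured hepatocyte markers, ALB among them, were above background in every pig. How precise a difference is depends on the number of arrays, and its median SE was 0.22 log2 units for the TLR probes and 0.16 for all tested probes.

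All 10 receptors were detectable in liver. Of the 15 probes, 13 were well above background in all 16 pigs, and all 15 passed the filter of at least 8 arrays, as did 30099 probes of the array. TLR10 was above background in 6 of 8 low-RFI pigs and 8 of 8 high-RFI pigs. The TLR4 probe A_72_P444577 was above background in 3 of 8 low-RFI pigs and 5 of 8 high-RFI pigs, which is just at the filter. Its level in the remaining pigs has no firm value.

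**Figure D1:**
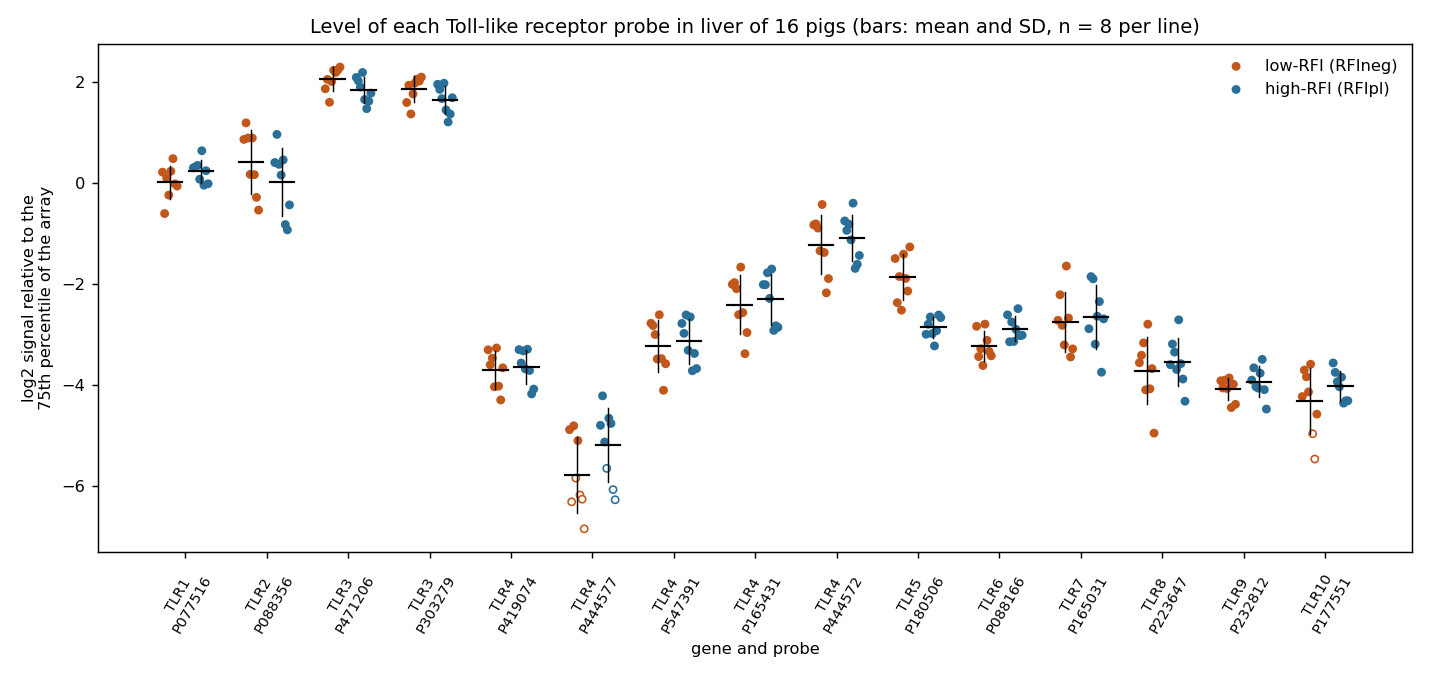
Level of each TLR probe in every pig (log2 units, 0 at the array's 75th percentile), with low-RFI pigs to the left of high-RFI pigs; bars give mean and SD (n = 8 per line), and open circles are spots not well above background. The 2 clouds of TLR5 are apart, from -2.52 to -1.27 in low-RFI pigs and from -3.23 to -2.62 in high-RFI pigs, and those of every other probe overlap.

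TLR5, the receptor for bacterial flagellin, was higher in low-RFI liver. Its lowest, median and highest levels were -2.52, -1.87 and -1.27 in low-RFI pigs, against -3.23, -2.86 and -2.62 in high-RFI pigs. Every low-RFI pig lay above every high-RFI pig, although the gap between the nearest pigs of the lines was narrow. The same order held in the signal before scaling between arrays, which was 74.4 to 164 intensity units in low-RFI pigs and 42.1 to 73.6 units in high-RFI pigs. The difference was 0.99 log2 units with a 95% interval of 0.63 to 1.35, a ratio of 1.99. Low-RFI pigs were also more spread out, with an SD of 0.46 against 0.21 in high-RFI pigs (n = 8 each).

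Both lines of each slide can be set against each other, since every slide carried both. TLR5 was higher in low-RFI pigs on all 4 slides, by 0.71, 1.56, 0.93 and 0.77 log2 units. As the lines did not overlap, this sign was fixed for every slide and for any other subset with pigs of both lines. On slide 4 the low-RFI pigs lay far apart, with levels of -2.52 and -1.27, while the high-RFI pigs were at -2.65 and -2.67. The pigs carry sample numbers in 2 runs, beginning at 1 and at 55, and TLR5 differed by 0.80 in the first run and 1.18 in the second. Without high-RFI pig 6 the TLR5 difference was 0.98, and with the normexp background model it was 0.60.

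**Figure D2:**
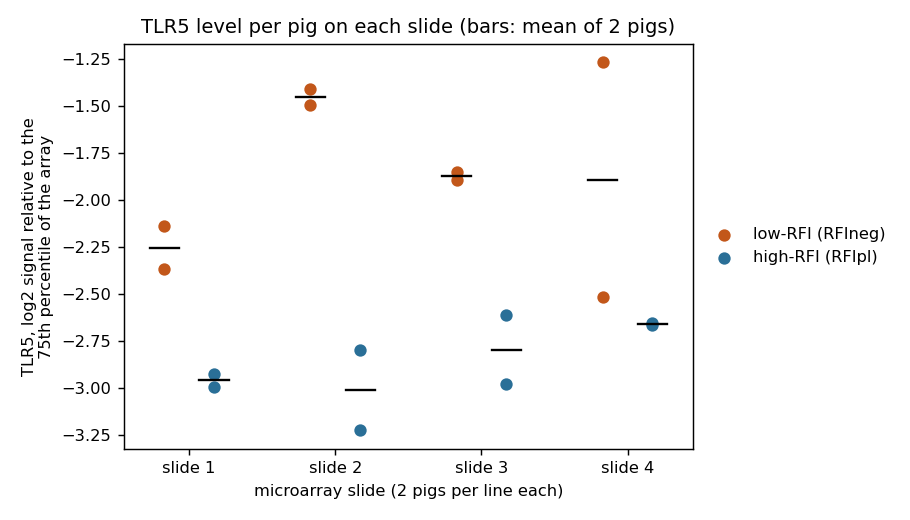
TLR5 level of each pig (log2 units, 0 at the array's 75th percentile) by slide, low-RFI pigs left of high-RFI pigs; black bars are means of 2 pigs. On every slide both low-RFI pigs are above both high-RFI pigs, as the lack of overlap requires, by 0.71 to 1.56 log2 units between the means.

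TLR4, the receptor for bacterial lipopolysaccharide, spread widely within each line. Its brightest probe, A_72_P444572, had a lowest, median and highest level of -2.18, -1.12 and -0.43 in low-RFI pigs and -1.69, -1.03 and -0.40 in high-RFI pigs. The lines overlapped over nearly their whole range. The difference was -0.12 with a 95% interval of -0.64 to 0.40. The probes at bases 749, 2208 and 2492 differed by -0.06, -0.09 and -0.11. The dim probe at base 2000 differed by -0.59, with an interval of -1.30 to 0.13, and 8 of its 16 spots were not above background.

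TLR2, which recognises bacterial lipoproteins in pairs with TLR1 or TLR6, varied widely among pigs of the same line. Its levels were -0.54, 0.52 and 1.19 (lowest, median, highest) in low-RFI pigs and -0.93, 0.26 and 0.96 in high-RFI pigs. The difference was 0.40 (SE 0.300), with an interval of -0.23 to 1.03. TLR1, the partner of TLR2 for triacylated lipopeptides, had levels of -0.61, 0.04 and 0.48 in low-RFI pigs and -0.04, 0.27 and 0.64 in high-RFI pigs. Its difference was -0.22 (SE 0.143).

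TLR6, the partner of TLR2 for diacylated lipopeptides, had a lower mean in low-RFI liver. Its levels were -3.62, -3.31 and -2.80 in low-RFI pigs, against -3.15, -2.96 and -2.49 in high-RFI pigs. The lines overlapped, and 6 of 8 low-RFI pigs were below the high-RFI mean. The difference was -0.35 (SE 0.137), and by slide it was -0.84, 0.20, -0.12 and -0.64, so its sign was not the same on all slides. With the normexp background model in place of the scanner's, it was -0.05.

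TLR10, whose ligand is less well settled, had levels of -5.47, -4.19 and -3.59 in low-RFI pigs and -4.36, -3.99 and -3.57 in high-RFI pigs. The lowest low-RFI values, in 2 pigs, were not above background. Its difference was -0.30 (SE 0.237).

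Among the receptors of the endosome, TLR3 reads double-stranded RNA. Its probe A_72_P471206 had levels of 1.60, 2.12 and 2.30 in low-RFI pigs and 1.47, 1.84 and 2.19 in high-RFI pigs. The overlapping probe A_72_P303279 differed by 0.21, against 0.22 for the first, and the levels of both varied together across pigs after the line means were removed. The TLR3 difference had opposite signs in the 2 runs of sample numbers, though the test of that change did not pass. In the run that begins at 1 it was -0.17, and in the run that begins at 55 it was 0.61. The change between the runs was 0.78 (SE 0.175), with an adjusted p of 0.426 over all tested probes in limma, and the second TLR3 probe gave 0.81 (SE 0.199, adjusted p of 0.478).

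TLR7 and TLR8, which bind single-stranded RNA, varied more between pigs than between lines. TLR7 levels were -3.45, -2.77 and -1.64 in low-RFI pigs and -3.75, -2.67 and -1.85 in high-RFI pigs, with a difference of -0.09 (SE 0.285). Its differences by slide were -0.21, 0.07, 0.72 and -0.95. TLR8 levels were -4.96, -3.62 and -2.80 in low-RFI pigs and -4.32, -3.59 and -2.71 in high-RFI pigs, with a difference of -0.18 (SE 0.268). TLR9, the receptor for unmethylated CpG DNA, was at -4.45, -4.02 and -3.86 in low-RFI pigs and -4.48, -3.97 and -3.49 in high-RFI pigs. It differed by -0.14 (SE 0.136).

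Of the 15 TLR probes, 4 had a higher mean in low-RFI liver and 11 a lower one, with a median difference of -0.11. Over all tested probes the median was -0.0012, and 49.7% were higher. The sign of the family's balance depended on the background model and on 1 pig. Under normexp, 12 of 15 TLR probes were higher in low-RFI liver (median 0.10), beside a median of 0.07 over all probes. Without low-RFI pig 7, 9 of 15 were higher, with a median of 0.01.

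TLR5 was the only TLR probe whose lines did not overlap, among 5 such probes higher in low-RFI liver on the array (0.0166%), and no TLR probe was among the 8 whose low-RFI pigs all lay lower (0.0266%). With limma and Benjamini-Hochberg adjustment over all tested probes, 0 of 15 TLR probes passed an adjusted p of 0.05, against 0.00997% of all tested probes, which were 3 probes, all lower. At an unadjusted p under 0.05 there were 2 TLR probes, beside 5.45% of all probes. These were TLR5, higher in low-RFI liver as were 2.46% of all probes, and TLR6, lower as were 2.99%. Leaving out low-RFI pig 4, whose TLR5 level was the lowest of its line, brought TLR5 to an adjusted p of 0.0456 in limma. Leaving out any other pig kept the count at 0. Nothing is read from these counts, because the family was chosen with this contrast in view.

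**Figure D3:**
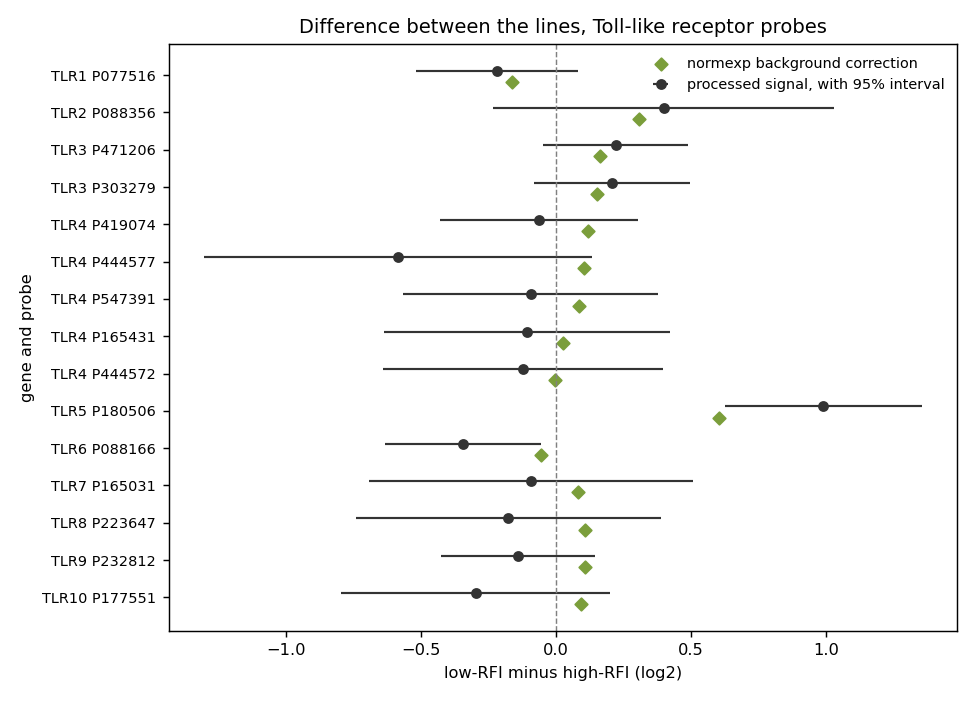
Difference between the lines (low-RFI minus high-RFI, log2) of each TLR probe; circles with lines are the scanner's processed signal with its 95% interval, and diamonds the normexp background model. TLR5 lies at 0.99 and 0.60, and TLR6 at -0.35 and -0.05.

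Variation among pigs of the same line is independent of the contrast between the lines, and it could be tested. Each receptor was taken at its brightest tested probe, line means were removed, and the 45 pairs of receptors and 70 pairs of a receptor with a marker list were compared over 16 pigs by permutation within lines. Of these 115 relations, 11 passed an adjusted p of 0.05 by Pearson's r, all of them positive, and 12 passed by Spearman's rho. With slide means removed as well, 9 passed, 7 of them among the 11. Pigs were still permuted within lines and not within slides there, so the p-values with slide means removed may be too small. The 2 that joined were TLR1 with granulocyte markers, which was negative (r = -0.77, adjusted permutation p = 0.0217), and TLR9 with stellate cell markers (r = 0.71, adjusted permutation p = 0.0325). Many liver genes reach such values, since the 95th percentile of r over 4009 named genes was 0.71 for TLR2, 0.70 for TLR4, 0.67 for TLR10 and 0.63 for TLR8.

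These permutations treat the 16 pigs as independent, and the levels also followed the pigs' numbers. Pigs 6, 7 and 8 lay below their line mean for TLR4 in both lines, at -0.16, -0.96 and -0.67 relative to it in low-RFI pigs and at -0.60, -0.51 and -0.34 in high-RFI pigs. TLR2 and TLR10 were likewise below the line mean in all 6 of these pigs. With the replicate number taken out, which leaves the 8 differences between same-numbered pigs, 0 of 115 relations passed and r of the 11 ran from -0.43 to 0.89 (smallest adjusted p = 0.258, exact permutation). For TLR2 it was -0.43 with TLR10, 0.46 with TLR4, 0.37 with TLR8, -0.22 with endothelium markers and 0.89 with macrophage markers. For TLR4 it was 0.37 with TLR10, -0.18 with TLR8 and 0.51 with macrophage markers. For TLR8 it was 0.44 with TLR9 and 0.18 with macrophage markers, and for TLR10 it was 0.40 with endothelium markers. With the means of each run of sample numbers taken out, 0 passed (smallest adjusted permutation p = 0.0745), and r of the 11 was 0.55 to 0.91. The relations below therefore hold as tested only if pigs of a shared number or run have nothing else in common. The labels do not settle this, but over all tested probes 6 of 8 same-numbered pairs correlated above 0.1. Their r ran from 0.05 to 0.40 with line means removed. The pigs were thus not shown to be independent, and the p-values below may be too small.

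Across the 16 pigs, TLR2 and TLR4 varied together, and each also varied with TLR8 and with TLR10. TLR2 and TLR4 had r = 0.88 (adjusted permutation p = 0.00268, raw p = 5e-05) and rho = 0.86 (adjusted permutation p = 0.00920), and r was 0.85 without the 2 pigs farthest from the median of TLR2. TLR4 and TLR10 had r = 0.85 and rho = 0.83 (adjusted permutation p of 0.00268 and 0.0103), with r = 0.79 without the 2 farthest pigs. With slide means also removed, these pairs kept r = 0.83 and r = 0.85. Pigs with a high TLR4 level for their line tended to have high TLR2 and TLR10 levels. TLR8 and TLR10 were not called together (r = 0.52, rho = 0.60, adjusted permutation p of 0.279 and 0.149).

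TLR2 and TLR10 had r = 0.75 and rho = 0.84 (adjusted permutation p of 0.00874 and 0.00920), with r = 0.79 without the 2 farthest pigs. The other called pairs all included TLR8. Its r was 0.73 with TLR4, 0.71 with TLR2 and 0.71 with TLR9 (adjusted permutation p of 0.0293, 0.0256 and 0.0213), and its rho was 0.72, 0.78 and 0.77 (adjusted permutation p of 0.0421, 0.0190 and 0.0170). Without the 2 farthest pigs r was 0.82, 0.62 and 0.69. With slide means removed these fell below the threshold, to r = 0.66, 0.58 and 0.48. Levels read on 1 array share that array's scaling, and with quantile normalisation in place of percentile scaling 14 of 115 relations passed, 10 of them among the 11.

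Kupffer cell and macrophage markers varied with TLR2, TLR4 and TLR8. On this array 5 of the 15 listed markers were measured (CD163, C1QA, VSIG4, CD5L and AIF1), all above background in every pig. TLR4 had r = 0.86 and rho = 0.81 with their mean level (adjusted permutation p of 0.00268 and 0.0103), and r = 0.89 without the 2 pigs farthest from the median. TLR8 had r = 0.82 and rho = 0.76 with it (adjusted permutation p of 0.00690 and 0.0195), and r = 0.71 without the 2 farthest pigs. With slide means removed r was 0.79 for TLR4 and 0.72 for TLR8. TLR2 had r = 0.72 and rho = 0.72 (adjusted permutation p of 0.0301 and 0.0322), and r = 0.62 without the 2 farthest pigs. With slide means removed its r was 0.56, which did not pass. TLR10 (r = 0.56, rho = 0.53, adjusted permutation p of 0.163 and 0.205) and TLR9 (r = 0.40, rho = 0.46, adjusted permutation p of 0.434 and 0.318) did not pass with these markers. In whole liver, fewer macrophages and less RNA per macrophage cannot be told apart.

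Liver endothelium markers were measured for 7 of 10 genes, all above background in every pig. TLR2 had r = 0.78 and TLR10 had r = 0.78 with their mean level (adjusted permutation p of 0.0138 for each), and the rho values were 0.76 and 0.76 (adjusted permutation p of 0.0194 for each). Without the 2 farthest pigs r was 0.74 and 0.66, and with slide means removed it was 0.72 and 0.74. Under quantile normalisation the TLR10 relation no longer passed (r = 0.63, adjusted permutation p = 0.0655), while that of TLR2 did (r = 0.76). TLR4 fell just short with the endothelium markers (r = 0.70, rho = 0.69, adjusted permutation p of 0.0501 and 0.0548). Leaving out high-RFI pig 6, the 11 called relations had r between 0.70 and 0.86.

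TLR5 had no called relation. Its r with the other 9 receptors ran from -0.21 to 0.40 and with the 7 marker lists from -0.36 to 0.28, and 0 of these 16 relations passed by either measure. TLR3 likewise had 0 called relations, with r from -0.33 to 0.09 with the other receptors and from -0.29 to 0.03 with the lists. A p above the threshold over 16 pigs does not show that these levels are unrelated. TLR6 and TLR7 had no called relation by either measure, though TLR7 reached r = 0.65 with another receptor. TLR1 had none by r before slide means were removed, with values from -0.64 to 0.66 over the marker lists, and passed by rho with the macrophage markers.

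**Figure D4:**
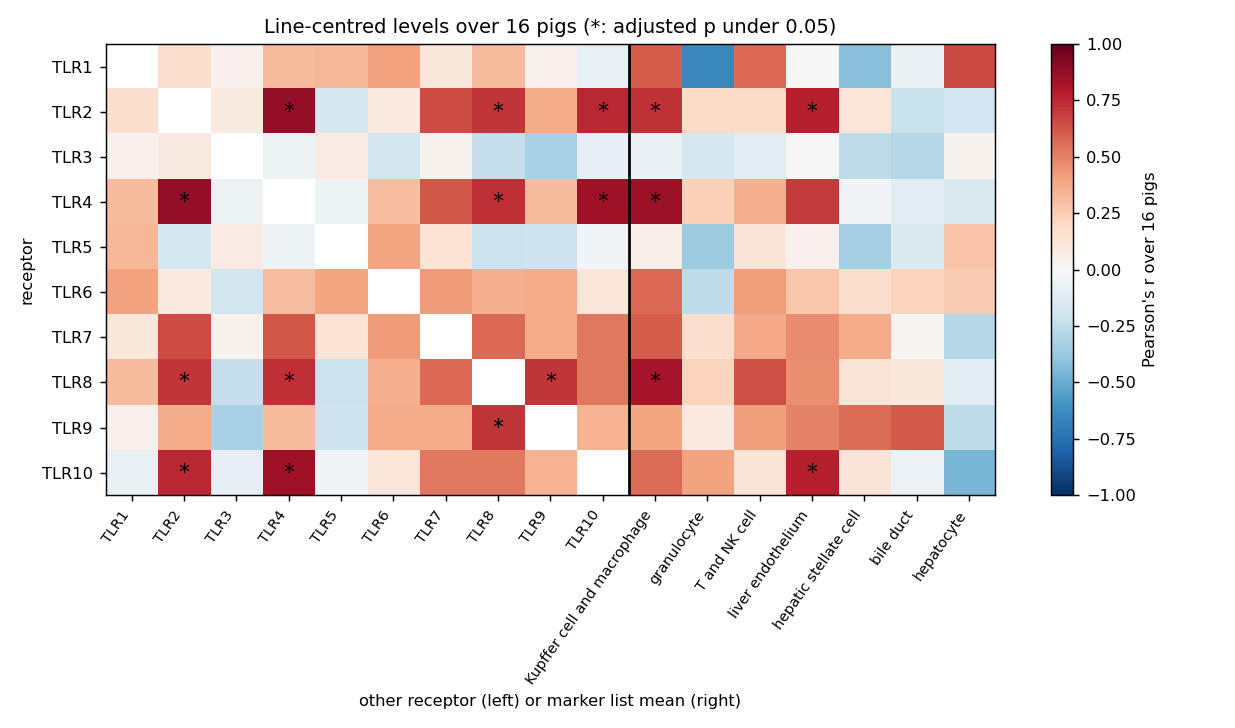
Pearson's r over 16 pigs between line-centred levels of the 10 receptors (left of the black line) and between each receptor and the mean of each marker list (right of it); an asterisk marks an adjusted permutation p under 0.05. The darkest red cell is TLR2 with TLR4, at r = 0.88, while the rows of TLR1, TLR3, TLR5, TLR6 and TLR7 hold no asterisk.

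**Figure D5:**
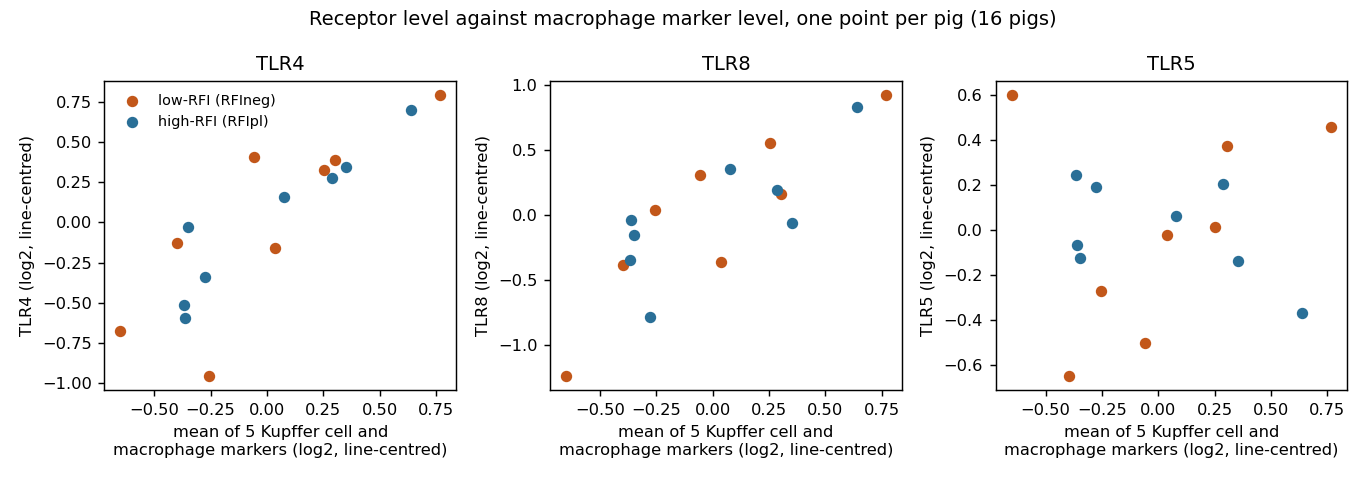
Line-centred level (log2) of TLR4, TLR8 and TLR5 against the mean of 5 Kupffer cell and macrophage markers, with a point for each pig, low-RFI in orange and high-RFI in blue. TLR4 (r = 0.86) and TLR8 (r = 0.82) climb with the markers in both lines, and TLR5 (r = 0.07) does not.

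The marker lists themselves were set beside the line difference of TLR5. Macrophage marker levels ran from 3.35 to 4.76 in low-RFI pigs and from 3.73 to 4.74 in high-RFI pigs. Endothelium marker levels averaged 0.96 ± 0.26 in low-RFI pigs and 0.89 ± 0.21 in high-RFI pigs (SD, n = 8 each). T and NK cell markers averaged -2.78 ± 0.78 in low-RFI pigs and -2.87 ± 0.58 in high-RFI pigs, and granulocyte markers -1.74 ± 0.53 in low-RFI pigs and -1.69 ± 0.30 in high-RFI pigs. Stellate cell markers averaged 2.01 ± 0.22 in low-RFI pigs and 2.14 ± 0.42 in high-RFI pigs, and bile duct markers -1.86 ± 0.26 in low-RFI pigs and -1.90 ± 0.41 in high-RFI pigs. Hepatocyte marker levels averaged 6.87 ± 0.18 in low-RFI pigs and 6.75 ± 0.10 in high-RFI pigs. At their brightest probes all 10 measured hepatocyte genes had the higher mean in low-RFI liver, beside 54.4% of all named genes. Some other probes of ALB, TTR, TF, CYP2E1 and HNF4A were lower there, those of ALB differing by -0.73 to 0.13. The other probes of APOA1, SERPINA1, HP and G6PC were higher. In no marker list did a gene pass the limma test between the lines. The part of cell makeup in the TLR5 difference was not tested.

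The named genes whose line-centred levels were most like each receptor's were found among 4009 genes over 16 pigs, as a description with no p. For TLR5 they were STAT6, the transcription factor of interleukin-4 signalling, with r = 0.79, EXPH5 (r = 0.75), ZNF572 (r = 0.75), PITPNC1 (r = 0.72) and SECISBP2L (r = 0.70). The 95th percentile of r with TLR5 over all these genes was 0.41. For TLR4 the most alike was SRGN, the granule proteoglycan serglycin of blood cells (r = 0.93), and for TLR10 it was FCGR2B, an inhibitory Fc receptor (r = 0.92). TLR7 was most like CD180, itself a relative of TLRs (r = 0.84), and TLR9 was most like the cytoskeletal linker MSN (r = 0.85).

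TLR2 was most like LCMT2 (r = 0.92), TLR8 most like the gene the annotation calls CXHXorf21 (r = 0.92), TLR6 most like IGG2B (r = 0.84), TLR3 most like the GMP reductase gene GMPR (r = 0.82) and TLR1 most like SULT1E1, an estrogen sulfotransferase (r = 0.76). For the TLR2 and TLR4 probes the 95th percentile of r over all genes was 0.71 and 0.70, so many genes of liver varied along with them.

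Genes that act with or after the receptors were taken from 7 lists with 84 genes. Of these, 56 were on the array and 49 were tested. In limma 0 of the 49 passed an adjusted p of 0.05 in either direction, as did 0 of 4026 named genes (0%). At an unadjusted p under 0.05, 3 passed (CD14, CCL3L1 and USP18), beside 4.97% of named genes. All 3 were higher in low-RFI liver, as were 2.73% of named genes, and 0 were lower, as were 2.24%. The 49 genes had a median difference of 0.04, with 29 higher, against 0.02 and 54.4% over all named genes.

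Among 7 measured co-receptors and ligand carriers, CD14, which hands lipopolysaccharide to TLR4, averaged 5.67 ± 0.24 in low-RFI pigs and 5.32 ± 0.23 in high-RFI pigs (SD, n = 8 each), a difference of 0.35 (SE 0.124). LY96, the MD-2 subunit that holds lipopolysaccharide on TLR4, averaged -0.24 ± 0.48 in low-RFI pigs and 0.13 ± 0.44 in high-RFI pigs. The levels of CD14 and LY96 overlapped between the lines.

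Of the chaperones that TLRs need to fold and reach their membrane, 2 of 5 were measured. HSP90B1 (gp96) differed by 0.17 (SE 0.228) and CNPY3 by 0.00 (SE 0.113). Among the 3 measured adaptors of 6 listed, TICAM2, which links TLR4 to the IRF arm, differed by -0.25 (SE 0.149), and MYD88, used by nearly all TLRs, by 0.11 (SE 0.189). Of 6 measured kinases and ubiquitin ligases, TRAF6 differed by 0.49 (SE 0.235) and TAB1 by -0.12 (SE 0.0832).

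In the NF-kB and IRF arm, 9 of 11 measured genes were higher and 2 lower in low-RFI liver, and none passed the test. Of all named genes 54.4% were higher. The median difference was small, at 0.08 for this arm against 0.02 over all named genes. IRF3, the interferon-inducing factor used by TLR3 and TLR4, differed by 0.23 (SE 0.111), and the kinase IKBKB by 0.28 (SE 0.163), although its other 2 probes differed by -0.05 and 0.04. Of 4 measured inhibitors, USP18 differed by 0.64 (SE 0.273) and TANK by 0.26 (SE 0.157), while the second TANK probe differed by -0.11. The 16 measured cytokine and chemokine targets split into 9 higher and 7 lower. Of these, CCL3L1, a macrophage chemokine, averaged 4.09 ± 0.24 in low-RFI pigs and 3.59 ± 0.41 in high-RFI pigs, a difference of 0.50 (SE 0.166). CCL5, a chemokine that draws T cells, differed by 0.69 (SE 0.459), and its other 2 probes by 0.20 and 0.66.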

How the data were processed

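Liver RNA of 16 pigs was labelled with Cy3 and read on 1-colour arrays, 1 per pig. Per the file headers, Agilent Feature Extraction 10.7.3.1 (protocol GE1_107_Sep09) quantified the spots, and the deposited processed signal is an intensity, background-subtracted within each array but not normalised between arrays. The authors' deposited series table holds log2 values of 27938 spots, equal to the log2 processed signal minus the median of the listed spots in each array (largest difference 4.48e-08). The submitters' processing notes name R 2.10.0.

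For each array the 75th percentile of log2 processed signal was subtracted, spots marked as outliers were left out, and spots of a probe were averaged. The 30099 probes well above background on at least 8 arrays were fitted together with limma 3.58.1 in R 4.3.3, low-RFI minus high-RFI, with Benjamini-Hochberg adjustment over all of them. Relations among pigs used 100000 permutations within lines (numpy 2.4.6, Python 3.11.15). A gene other than a TLR is given by its brightest tested probe. Symbols came from the files and from RefSeq tables. Of 5779 probes with a RefSeq accession, 5391 were named by it, and 11320 probes were named in all. Named were all TLR probes, the 2 genes with the smallest p of each pathway list, any called genes, the 5 genes most like TLR5 and the 1 most like each other receptor. In simulated data with these spreads, 200 of 30099 probes were changed together, with independent noise. There 76% of changes of 1 log2 unit and 100% of 2 log2 units were recovered, and 6.4% of the calls were false. The adjustment is stricter where fewer probes change, so these shares do not give the odds of calling a lone change in the real data. The receptors, lists and tests were chosen with earlier results of these data known. The comparison of the runs of sample numbers, and the removal of runs or of replicate numbers from the relations among pigs, were added after the data had been seen. Each pig gave 1 array, so p-values measure the spread between pigs.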

Additional observations from a re-analysis of the deposited data

How the results depend on the processing

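The TLR5 difference of 0.99 log2 units had the same sign in all alternatives that gave it. For single slides and with pigs left out that sign was fixed, since the lines did not overlap. It was 0.60 with normexp (adjusted p = 0.0775 in limma), 1.56 on slide 2 alone, and 0.99 to 1.03 in the other scalings, with outlier spots kept or with array weights, at adjusted p from 0.0691 to 0.125. Leaving out 1 pig gave 0.90 to 1.08, with adjusted p from 0.0456 to 0.231, and 0 to 1 TLR probes called. The called one was TLR5 without low-RFI pig 4. The authors' table lists 13 of the 15 TLR probes and gave no TLR5 value here. Same-numbered pigs of the lines are not known to be related. With the replicate number as a block the TLR5 difference was 0.99 at an adjusted p of 0.213 in limma, and 0 TLR probes were called. Over all tested probes, with line means removed, 6 of 8 same-numbered pairs correlated above 0.1 (r from 0.05 to 0.40). The mean r of each low-RFI pig with the differently numbered high-RFI pigs was lower, from -0.081 to -0.0035. Removing line means all but forces this where the same-numbered r is positive, so it adds no separate evidence. The main fit does not take the number into account. Relations among receptors and marker lists that passed were 11, against 0 with the replicate block and 0 with the runs of sample numbers taken out, both added after the data had been seen. Taking out the number leaves 8 differences, so fewer values enter. With slide as a fixed block the adjusted p was 0.200. TLR pathway genes called stayed at 0 under all alternatives. Probes called over the whole array were 3, against 1 with normexp, 1 with the filter on all 16 arrays, 7 with array weights and 2 to 5 with 1 pig left out. The causes of these shifts were not tested.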

Other observations

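Further probes are described in the array's annotation as Toll-like receptor sequence without carrying a member's symbol, and they were not counted as TLR probes. Probe A_72_P180746, described as Toll-like receptor 4, averaged -2.46 ± 0.53 in low-RFI pigs and -2.30 ± 0.40 in high-RFI pigs (SD, n = 8 each), and it varied with the 5 TLR4 probes at r = 0.66 to 0.93 over 16 pigs after line means were removed. Probe A_72_P163051, matched to mouse TLR2 sequence, differed by 0.05. Probe A_72_P442750, described as a fragment of the same receptor, was above background in 0 of 8 low-RFI pigs and 1 of 8 high-RFI pigs and was not tested.

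The TLR3 probe pair varied together at r = 0.98 and rho = 0.98 (adjusted permutation p = 2.67e-05 for each, 16 probe pairs); they share 48 of 60 bases. Among the TLR4 probes r ran from 0.59 to 0.98, and the 4 lowest values all involved the dim probe A_72_P444577.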
